A study of Mus musculus with 4 samples.

Results

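The nuclear-encoded subunits of the mitochondrial respiratory chain and the ATP synthase were examined in epididymal fat of mice on high-fat diets. Members were the genes whose symbol begins with Nduf followed by a, b, c, s or v and a digit, is Sdha, Sdhb, Sdhc, Sdhd or Cyc1, or begins with Uqcr, Cox4 to Cox8 or Atp5. Pseudogenes were left out, and where a gene had several probe sets, the one of highest average log2 signal across the 4 arrays stood for it. This gave 82 members of 18194 measured genes, of which 35 belong to complex I, 4 to complex II, 9 to complex III, 17 to complex IV and 17 to complex V.

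The arrays came from C57Bl/6J mice that began a diet with 60% of its energy as fat at 9 weeks of age and stayed on it for 21 weeks. On the high-calcium whey diet (1.8% calcium, with whey protein isolate) 2 arrays were labelled, called high-calcium replicates 1 and 2, and on the standard high-fat diet (0.4% calcium) 1 array was labelled, called the standard array. The fourth array carries no diet in its labels: it is called the array of open diet, its values are given, and it entered no comparison. The labels speak of 10 mice fed and 2 profiled per diet. The diets differ in calcium and whey protein together, and with 1 standard array a difference between diets cannot be told apart from a difference between single mice.

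Electrons from food enter the chain at complex I, which oxidises NADH, and at complex II, which oxidises succinate in the tricarboxylic acid cycle. Quinone carries them to complex III, cytochrome c carries them to complex IV, which reduces oxygen, and the proton gradient built on the way drives the ATP synthase, complex V. White fat cells hold fewer mitochondria than brown ones, and their respiratory chain supplies ATP for lipid turnover and hormone release.

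Signal is given as the log2 of the deposited linear value, which has no unit, and a level above the median of all probe sets of an array is called above background. That median was 0.0963, 0.0628, 0.0624 and 0.0585 on the linear scale for high-calcium replicate 1, high-calcium replicate 2, the standard array and the array of open diet. As a check of the labelled tissue, 12 of 12 adipocyte markers measured were above background on every array, with a median difference of 0.06 on high-calcium replicate 1 and 0.05 on high-calcium replicate 2. RNA of other cells differed between the arrays. The summed linear signal of 12 smooth muscle markers was 90.9 and 12.5 on the high-calcium arrays, against 15.2 on the standard array, and 10.9 on the array of open diet. For 10 macrophage markers the sums were 41.5 and 70.1 on the high-calcium arrays, against 64.3 on the standard array, and 69.4 on the array of open diet. Other lists differed from the standard array alike on both high-calcium arrays and on the array of open diet. Of 10 endothelial markers 9 were lower on both high-calcium arrays, with medians of -0.38 and -0.56, and -0.58 on the array of open diet. Of 7 mesothelial markers 6 were higher on both, with medians of 1.31 and 0.54, and 0.84 on the array of open diet. Their part in the members' values was not tested. Because whole fat pads were extracted, fewer cells of a type and less RNA per cell cannot be told apart.

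Respiratory chain subunits were close to each other on the high-calcium and standard arrays. Of the 82 members 78 were above background on all 4 arrays, and 62 of these 78 (79.5%) lay within 0.25 log2 units of the standard array on both high-calcium arrays. Over all 10463 genes above background that share was 36.4%, but bright probe sets vary less. Among genes with a mean log2 signal of 1 or more it was 87.1% for 70 members and 60.2% for the 1667 other genes. That limit did not equalise the signal of members and others. On the standard array the summed linear signal was 657 over the 70 members and 9732 over the 1667 others, so the members were still brighter on average. Both the 0.25 limit and the signal limit were chosen after the values had been seen, and the shares are descriptions without a test. The median absolute difference over the 78 members was 0.11 between high-calcium replicate 1 and the standard array and 0.097 between high-calcium replicate 2 and the standard array, while the 2 high-calcium arrays were 0.11 apart. For the other genes above background these values were 0.25, 0.18 and 0.25.

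No member passed limma's test between the diets. At an adjusted p under 0.05 limma called 0 of 82 members, and it called 0% of the 18194 genes. At an unadjusted p under 0.05 it gave 1 member, Ndufb4, whose probe set was under background on all 4 arrays, and 4.94% of all genes (0.182% of those above background). When limma's prior followed a trend with signal and was fitted robustly, it called 0 members and 0.033% of genes. The 95% intervals were wide: that of Uqcrb ran from -1.26 to 1.10. The fit of 3 arrays left 1 residual degree of freedom, so each SE leaned on a prior spread shared by all genes, dim ones included. For Uqcrb the SE was 0.32 with that prior and 0.11 with the trended, robust prior. For Atp5md of complex V, with a difference of -0.60, the SE was 0.32 with the first prior and 0.16 with the second. How small a difference could be detected thus depends on the prior, and with 1 standard array it is not settled. The absence of a call does not show that the diets act alike on these genes.

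By side alone, 32 of the 82 members were lower on both high-calcium arrays than on the standard array and 15 were higher on both, beside 23.9% and 38.6% of all genes. Of the 78 above background, 31 were lower on both, 14 were higher on both and 33 were split. These are 39.7% and 17.9%, beside 27.1% lower on both and 35.4% higher on both among all genes above background. Among genes with a mean log2 signal of 1 or more, 41.4% of members were lower on both and 15.7% higher on both, against 34.6% and 31.1% of the other genes. The median difference over all 82 members was -0.019, with 0.021 on high-calcium replicate 1 and -0.075 on high-calcium replicate 2. The median over all genes was 0.079, with 0.19 and 0.013 on the same arrays. Of the 31 members lower on both high-calcium arrays 25 also had a lower signal on the array of open diet, as did 72.5% of such genes above background. Of the 14 members higher on both, 8 were also higher on the array of open diet, as were 64.7% of such genes. The counts rest on comparisons that share the 1 standard array, and on single arrays and the scale. Against the standard array, 63 members were lower and 19 higher on high-calcium replicate 2 alone, and 36 were lower and 46 higher on high-calcium replicate 1 alone. Over all genes the shares were 48.6% lower and 51.4% higher on replicate 2, and 36.6% lower and 63.4% higher on replicate 1. With each array centred on its median, 63 members were lower on both high-calcium arrays and 3 higher on both, but all genes shifted too, to 38.8% lower and 20.4% higher. The excess of lower over higher members was small under other choices of probe set. When a gene's probe sets were averaged, 28 members were lower and 26 higher (all genes 20% and 42.1%). That average takes in probe sets under background, such as that of Cox5b with differences of 2.61 and 2.80. Among 66 members without probe sets that can share transcripts, 22 were lower and 20 higher (all genes 22.5% and 39.6%).

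**Figure D1:**
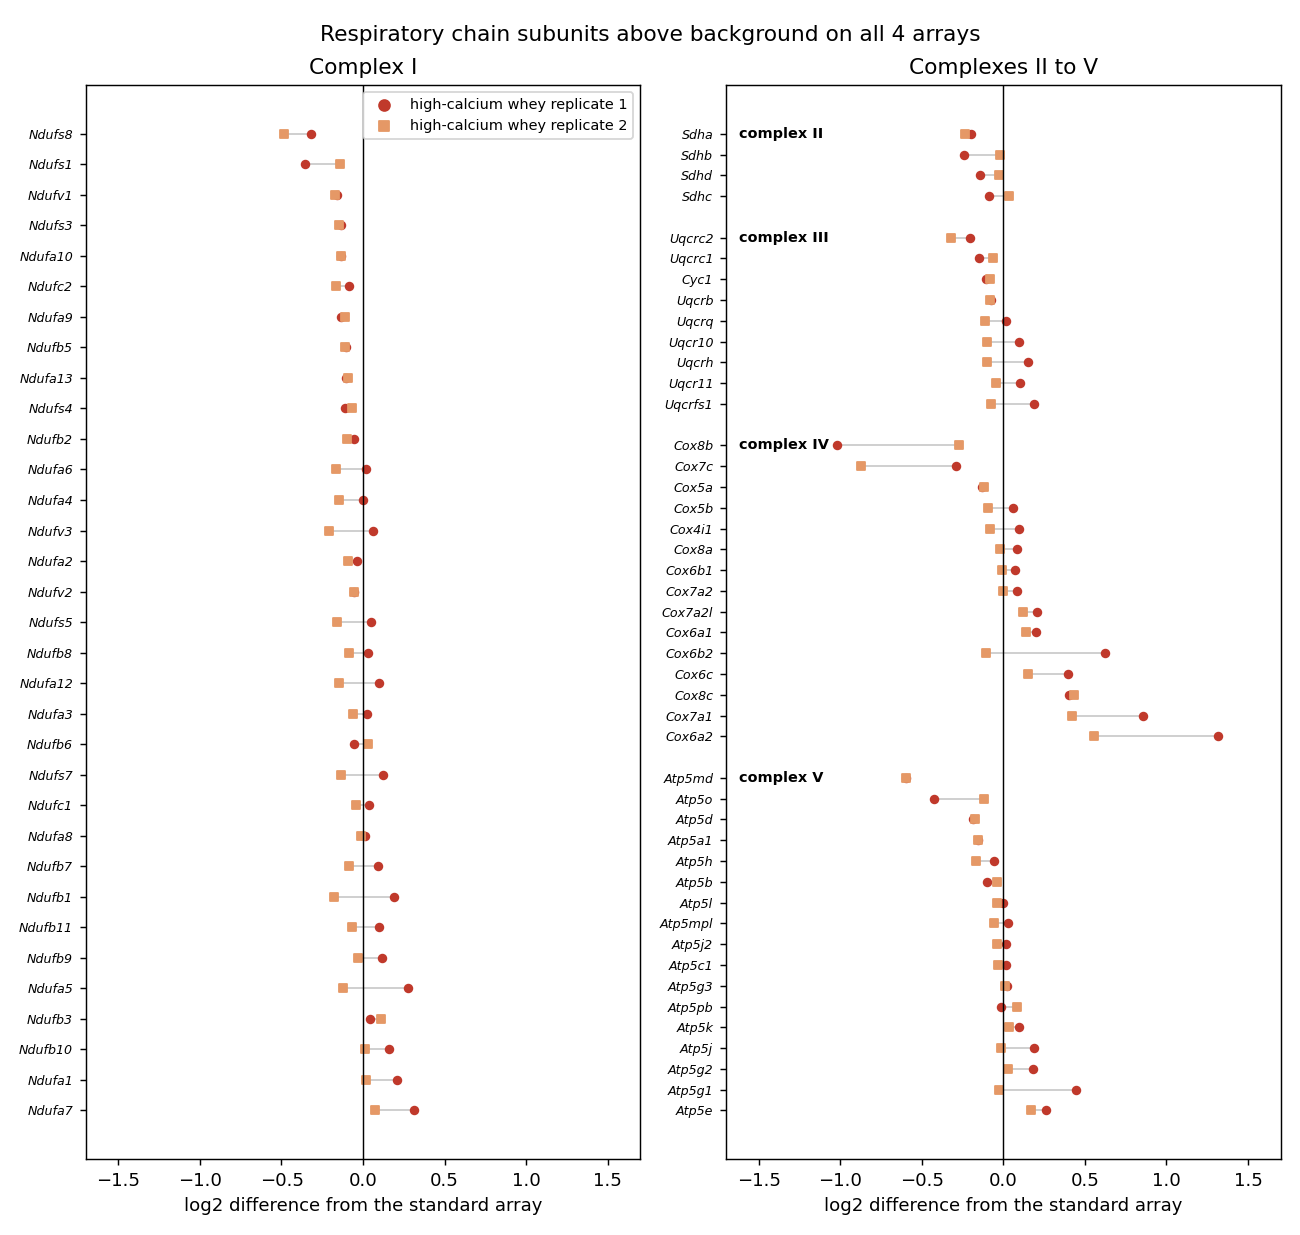
Log2 difference from the standard array (horizontal axis) of the 78 members above background on all 4 arrays, 1 row per gene, ordered within each complex by the mean of the 2 arrays. Circles stand for high-calcium whey replicate 1 and squares for replicate 2, and a grey line joins them. Most genes of complexes I, II, III and V lie near 0, with Atp5md at -0.60 and -0.59 apart from the rest of complex V, and the widest values are those of Cox6a2, Cox8b, Cox7c and Cox7a1 of complex IV.

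Complex I takes electrons from NADH through a flavin and a row of iron-sulphur clusters held by core subunits, around which many accessory subunits sit. Of its 33 members above background 14 (42.4%) lay below the standard array on both high-calcium arrays and 4 (12.1%) lay above it on both. Among all genes above background these shares were 27.1% and 35.4%. Among other genes with a mean log2 signal of 1 or more they were 34.6% and 31.1%. The median over all 35 members was -0.055. The core subunits leaned to the lower side by the probe sets chosen. Other probe sets of Ndufv1, Ndufv2 and Ndufs8 did not all follow. Of 6 core subunits measured, 5 were lower on both arrays, beside 27.1% of all genes above background, and 1, Ndufs7, was split. The 6 had a median difference of -0.15 on each high-calcium array, while the 29 accessory subunits had medians of 0.030 and -0.093. None of the core subunits passed limma's test.

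At the NADH side, Ndufv1, the subunit that binds NADH and the flavin, had log2 signals of 1.94 and 1.93 on the high-calcium arrays, against 2.10 on the standard array. The array of open diet had 2.09, near the standard array, and the difference was 0.012 without probe sets that can share transcripts. Ndufs1, the largest core subunit and a carrier of iron-sulphur clusters, had 0.83 and 1.04 on the high-calcium arrays, against 1.19 on the standard array, a mean difference of -0.25 (SE 0.34). Ndufv2, which carries another iron-sulphur cluster, had 2.86 and 2.86 on the high-calcium arrays, against 2.91 on the standard array. By these probe sets all 3 were lower on both high-calcium arrays, by at most 0.36. Another bright probe set was split for Ndufv1 (0.13 and -0.11) and for Ndufv2 (0.18 and -0.12). The remaining probe set of each was lower on both.

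Toward the quinone, Ndufs8, an iron-sulphur subunit, had the largest difference of complex I among the members above background. It had log2 signals of 2.52 and 2.35 on the high-calcium arrays, against 2.83 on the standard array, a mean difference of -0.40 with a 95% interval from -1.63 to 0.83 (limma, adjusted p = 1). The array of open diet lay between, at 2.63. This value depends on the probe set. A second Ndufs8 probe set had 2.51 and 2.46 on the high-calcium arrays, against 2.47 on the standard array, and yet another had -1.39 and -1.45 against -2.35, so that the gene has no settled direction. Ndufs3, also of this part of the core and measured by 1 probe set, had 1.98 and 1.97 on the high-calcium arrays, against 2.12 on the standard array. Ndufs7, which holds the last cluster before the quinone, had 2.22 and 1.97, against 2.10 on the standard array, and the high-calcium arrays lay on either side of it.

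Accessory subunits lay on both sides of the standard array. Of the 27 above background 9 (33.3%) were lower on both high-calcium arrays, 4 (14.8%) were higher on both and 14 were split. Among all genes above background 27.1% were lower on both and 35.4% higher on both. The genes named next do not mirror these shares. Ndufa1, a membrane-arm subunit, had log2 signals of 3.86 and 3.67 on the high-calcium arrays, against 3.65 on the standard array, and Ndufa13 had 3.63 and 3.64 against 3.74. Ndufb9 had 3.70 and 3.55 on the high-calcium arrays, against 3.58 on the standard array. The largest difference upward above background was that of Ndufa7, at 0.31 on high-calcium replicate 1 and 0.073 on high-calcium replicate 2. Ndufb10 had differences of 0.16 and 0.013. Ndufa5 had the widest gap between the high-calcium arrays among the complex I members above background, with 2.43 and 2.04 on them, against 2.16 on the standard array.

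Some symbols of the complex I family need care. Ndufa4, listed here by its name, is now counted as a subunit of complex IV, and it had log2 signals of 2.84 and 2.69 on the high-calcium arrays, against 2.84 on the standard array. Its relative Ndufa4l2, a gene known to be induced in hypoxia, had -5.02 on high-calcium replicate 1, below background, and -2.79 on high-calcium replicate 2, against -2.63 on the standard array. High-calcium replicate 1 alone set this difference, and the array of open diet had -2.21. Ndufb4 had only a dim probe set of its own, at -4.12 and -4.77 on the high-calcium arrays, against -7.27 on the standard array, all under background, so no fold is given. A bright probe set shared by Ndufb4, Ndufb4b and Ndufb4c had 3.32 and 3.21 on the high-calcium arrays, against 3.15 on the standard array. Ndufs6, measured only by a probe set it shares with Ndufs6b, had 1.75 and 1.67, against 1.56 on the standard array.

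Complex II, the succinate dehydrogenase, is the only complex of the chain with no subunit from the mitochondrial genome. Of its 4 subunits 3 lay below the standard array on both high-calcium arrays and 0 above it on both. Among other genes with a mean log2 signal of 1 or more, 34.6% were lower on both and 31.1% higher on both. The medians of complex II were -0.17 on high-calcium replicate 1 and -0.024 on high-calcium replicate 2. Sdha, the flavoprotein that oxidises succinate, had log2 signals of 2.58 and 2.55 on the high-calcium arrays, against 2.78 on the standard array, a difference of -0.22 (SE 0.32), and 2.76 on the array of open diet. Its second bright probe set pointed the same way, at -0.36 and -0.18. Sdhb, the iron-sulphur subunit, had 2.68 and 2.90 on the high-calcium arrays, against 2.92 on the standard array, and was set by replicate 1. The membrane anchors were Sdhc, with 1.85 and 1.97 against 1.94 on the standard array, and Sdhd, with 1.63 and 1.75 against 1.78. Both anchors were lower on replicate 1, and only Sdhd was lower on replicate 2 as well. Other probe sets of the anchors differed from this, with 0.48 and 0.0093 for Sdhc and 0.069 and -0.14 for Sdhd, so their direction is not settled.

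Complex III passes electrons from quinone to cytochrome c. By the probe sets chosen, 4 of its 9 subunits (44.4%) were lower on both high-calcium arrays, and 0 were higher on both. Among other genes with a mean log2 signal of 1 or more these shares were 34.6% and 31.1%. By the same probe sets the 4 core and redox subunits had a median difference of -0.10, and the 5 small subunits of -0.0015. Uqcrc2, a core protein, had log2 signals of 2.10 and 1.98 on the high-calcium arrays, against 2.30 on the standard array, and 2.15 on the array of open diet. Its difference was -0.26 (SE 0.32), and a second probe set gave -0.34. Uqcrc1, the other core protein, had 1.51 and 1.59 on the high-calcium arrays, against 1.65 on the standard array. Cyc1, which carries the haem that reduces cytochrome c, had 2.87 and 2.89, against 2.97 on the standard array. Uqcr10, a small subunit, had 2.31 and 2.12, against 2.22 on the standard array. Its other probe sets were higher on both high-calcium arrays, at 0.30 and 0.10 and at 0.42 and 0.38. The Rieske iron-sulphur protein Uqcrfs1 was split, with 2.50 and 2.23 on the high-calcium arrays, against 2.30 on the standard array. Among the small subunits Uqcrb had 4.83 and 4.83 on the high-calcium arrays, against 4.91 on the standard array, and the hinge protein Uqcrh had 3.69 and 3.43, against 3.53. A second probe set was lower on both high-calcium arrays for Uqcrb (-0.51 and -0.090) and for Uqcrh (-0.27 and -0.097). The direction of Uqcr10 and Uqcrh is thus not settled.

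**Figure D2:**
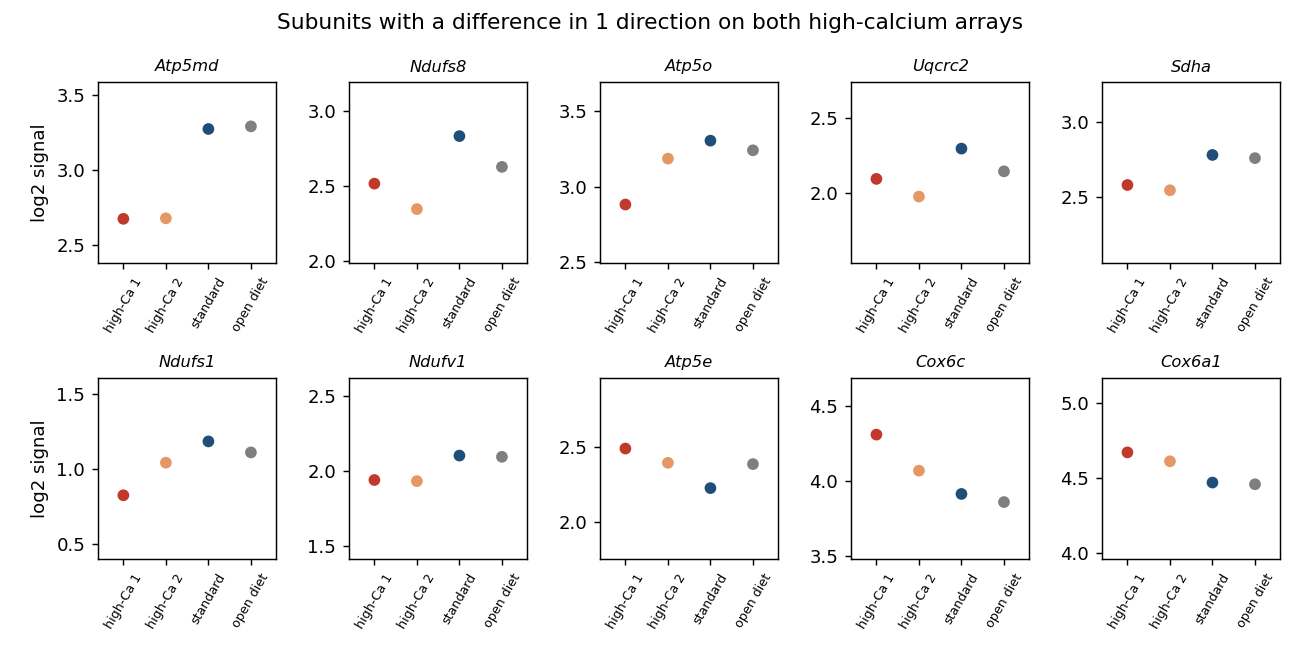
Log2 signal (vertical axis, each panel 1.2 log2 units high) of 10 subunits that were lower or higher on both high-calcium arrays, with 1 point per array from left to right for high-calcium replicate 1, high-calcium replicate 2, the standard diet and the open diet. In Atp5md the high-calcium arrays stand at 2.68 and the other arrays at 3.27 and 3.29, while in Ndufs8, Atp5o and Uqcrc2 the array of open diet lies between.

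Complex V makes ATP in a catalytic head, inside which a shaft is turned by a ring in the membrane while a peripheral stalk holds the head still. Of its 17 subunits 7 (41.2%) were lower on both high-calcium arrays and 4 (23.5%) were higher on both. Among other genes with a mean log2 signal of 1 or more these shares were 34.6% and 31.1%, not far from those of complex V. Atp5md, a small membrane subunit that also bears the name DAPIT and takes part in joining ATP synthases into dimers, stood apart from the others. It had log2 signals of 2.68 and 2.68 on the high-calcium arrays, against 3.27 on the standard array, a 1.51-fold lower level with a difference of -0.60 (SE 0.32) and a 95% interval from -1.77 to 0.58. The array of open diet had 3.29, as high as the standard array. Atp5md was the only 1 of 78 members above background whose level was lower by 1.5-fold or more on each high-calcium array, where 1.12% of genes above background were. Its differences sat just past that limit, and after quantile normalization its mean difference of -0.58 fell short of it. On the other side 0 of 78 were that much higher on both, against 2.11% of genes. By the smaller of its 2 differences it ranked number 10 among the 606 genes with a mean log2 signal of 1 or more that were lower on both. It was not called by limma (adjusted p = 1), nor by limma with the trended, robust prior (adjusted p = 0.679), and only 1 probe set measures it.

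In the head of the synthase 3 of 5 subunits had both high-calcium arrays below the standard array and 1 had both above it. Atp5b, the catalytic beta subunit, had log2 signals of 3.65 and 3.71 on the high-calcium arrays, against 3.74 on the standard array, and Atp5c1, the gamma shaft, had 3.96 and 3.90, against 3.94. Atp5a1, the alpha subunit, had 3.13 and 3.13 on the high-calcium arrays, against 3.29 on the standard array. Atp5d, the delta subunit, had 3.15 and 3.15, against 3.33. For both of these genes another probe set was higher on both high-calcium arrays, at 0.14 for Atp5d and 0.20 for Atp5a1 on average, and that of Atp5a1 was only 0.021 higher on replicate 2. A further Atp5a1 probe set was lower on both, at -0.22 and -0.072. Atp5e, the epsilon subunit, lay on the other side, with 2.49 and 2.39 on the high-calcium arrays, against 2.22 on the standard array, and 2.38 on the array of open diet. In the peripheral stalk Atp5o, which links it to the head, had 2.88 and 3.19 on the high-calcium arrays, against 3.30 on the standard array, with a difference of -0.42 on replicate 1 and -0.12 on replicate 2. A second Atp5o probe set gave -0.39 and -0.31. Of the other stalk subunits, Atp5h had 4.01 and 3.90 on the high-calcium arrays, against 4.07 on the standard array, Atp5j had 3.39 and 3.18, against 3.20, and Atp5pb had 3.85 and 3.95, against 3.87.

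The membrane ring is built of subunit c, whose mature form is the same from each of 3 genes, of which 2 were higher on both high-calcium arrays as deposited but lower on average when each array was centred on its median (Atp5g2 -0.21, Atp5g3 -0.30). Atp5g3 had log2 signals of 4.31 and 4.30 on the high-calcium arrays, against 4.29 on the standard array, and the array of open diet had 4.25. Atp5g2 had 2.45 and 2.29, against 2.26 on the standard array. Atp5g1 had 1.09 and 0.62, against 0.65 on the standard array, so that only replicate 1 was higher. The small membrane subunit Atp5k had 3.51 and 3.45 on the high-calcium arrays, against 3.42 on the standard array. The other small membrane subunits Atp5l, Atp5j2 and Atp5mpl differed from the standard array by at most 0.058 on either high-calcium array, and were chosen for mention after their values were seen.

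Complex IV reduces oxygen and holds several subunits that exist in a widely expressed form and a tissue-restricted one. Of 9 widely expressed forms, a count that leaves out Cox7c, 1 was lower on both high-calcium arrays, 3 were higher on both and 5 were split. Their median difference was 0.035. Over all 15 complex IV members above background 20% were lower on both and 40% higher on both. Among all genes above background these shares were 27.1% and 35.4%. Cox6c, a small subunit picked after its values were seen, had log2 signals of 4.31 and 4.07 on the high-calcium arrays, against 3.91 on the standard array, a difference of 0.27 (SE 0.35), and the array of open diet had 3.86. A second Cox6c probe set gave 0.33 and -0.0022, so the higher value on replicate 2 rests on 1 probe set. Cox6a1 had 4.67 and 4.61, against 4.47 on the standard array, whereas its second probe set gave 0.018 and -0.11. Cox7a2l, which takes part in joining complexes III and IV, had 2.49 and 2.40, against 2.29 on the standard array, and 1 of its probe sets was lower on both high-calcium arrays. Cox4i1, Cox6b1, Cox7a2 and Cox8a had means within 0.042 of the standard array. Cox5a, the lower 1 of the 9, had 3.49 and 3.51 on the high-calcium arrays, against 3.62 on the standard array, and its difference was 0.0038 without probe sets that can share transcripts. Cox7c, also widely expressed but measured only near background, was lower on both, with -3.37 and -3.95 on the high-calcium arrays, against -3.08 on the standard array.

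The tissue-restricted forms of complex IV varied more. Cox6a2, the heart and skeletal muscle form of subunit 6a, had log2 signals of -1.98 and -2.75 on the high-calcium arrays, against -3.30 on the standard array, with -2.55 on the array of open diet. Cox7a1, the form of subunit 7a in muscle and brown fat, had -0.88 and -1.31, against -1.73 on the standard array, with -1.30 on the array of open diet. Both genes were higher on both high-calcium arrays and highest on replicate 1. Cox8b, which is likewise found in muscle and brown fat, lay on the other side, with -0.49 and 0.26, against 0.53 on the standard array. Replicate 1 carried most of its difference of -0.64 (SE 0.53), at -1.02 against -0.27 on replicate 2, and the array of open diet had 0.26. The 3 genes thus did not share a direction. The testis form Cox8c had -1.89 and -1.86 on the high-calcium arrays, against -2.29 on the standard array, with -1.87 on the array of open diet. Cox6b2, also a testis form, was split at -2.57 and -3.30, against -3.20 on the standard array. Cox7b2 was under background on all 4 arrays, and Cox4i2, a form known from lung and hypoxia, was above it only on high-calcium replicate 2 and the array of open diet.

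Markers of the tissues in which these forms are known differed between the arrays too. Of 12 striated muscle markers only 2 were above background on all 4 arrays, and the summed linear signal of the 12 was 5.91 and 2.28 on the high-calcium arrays, against 2.72 on the standard array, and 2.50 on the array of open diet. The fast-fibre gene Tnnc2, picked after its values were seen, had log2 signals of 1.32 and -5.99 on the high-calcium arrays, against -5.46 on the standard array. Of 7 brown fat markers 4 were above background on all arrays, with sums over the 7 of 1.04 and 1.03, against 1.75 on the standard array, and 1.46 on the array of open diet. Ucp1, the uncoupling protein that defines brown fat, was under background on all 4 arrays. Of 9 male germ cell markers 1 was above background on all arrays, with sums over the 9 of 4.43 and 0.42, against 2.82 on the standard array, and 0.26 on the array of open diet. The part of these cells in the values of Cox6a2, Cox7a1, Cox8b, Cox8c and Cox6b2 was not tested.

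**Figure D3:**
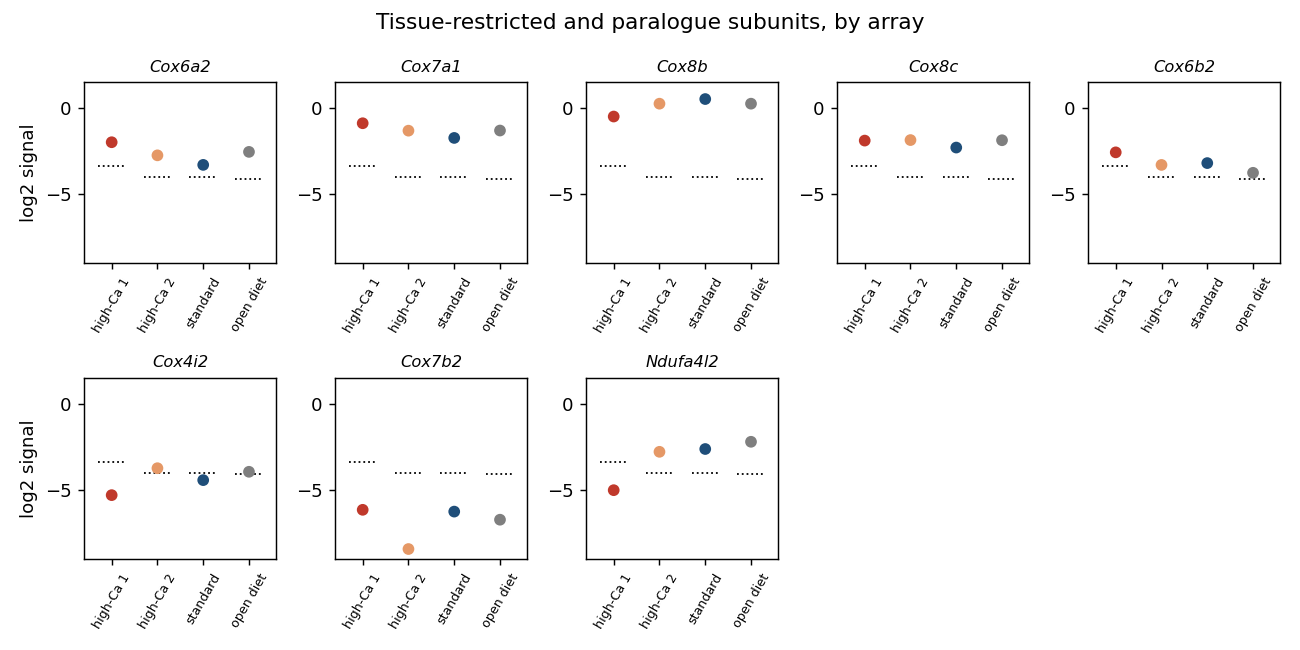
Log2 signal (vertical axis) of 8 tissue-restricted or paralogue subunits, with 1 point per array from left to right for high-calcium replicate 1, high-calcium replicate 2, the standard diet and the open diet; the dotted line is the median of all probe sets of that array, taken as background. Cox6a2 and Cox7a1 are higher on both high-calcium arrays than on the standard array, Cox8b is lower, Cox7b2 is under the line on every array, and Ndufa4l2 is under it on high-calcium replicate 1.

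Probe sets of the same subunit did not always point the same way. The 82 members have 165 probe sets with 1 gene symbol, and 140 of them exceeded background on every array. Of 41 members with at least 2 such probe sets, 6 had a probe set higher and another lower on both high-calcium arrays, namely Atp5a1, Atp5d, Cox7a2l, Ndufb2, Ndufs4 and Ndufs8. A split probe set beside a lower or higher one was not counted, as in Uqcr10, Uqcrh, Ndufv1, Ndufv2, Cox5a and Cox6a1. The remaining members thus did not all agree, and the share over all genes was not computed. Ndufs4 had log2 signals of 1.39 and 1.44 on the high-calcium arrays, against 1.51 on the standard array, and Ndufb2 had 2.36 and 2.31, against 2.41.

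**Figure D4:**
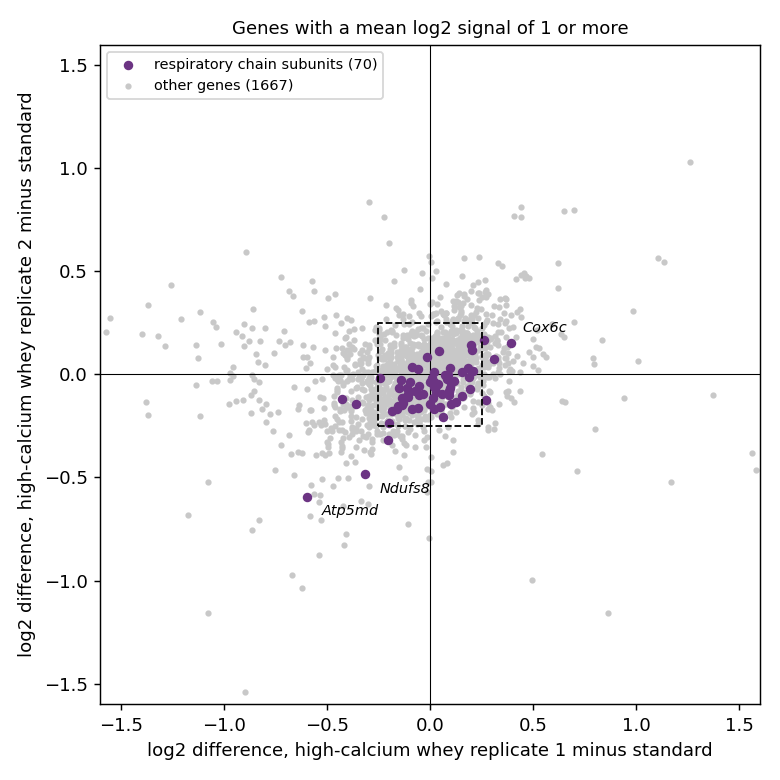
Log2 difference from the standard array on high-calcium whey replicate 1 (horizontal axis) and replicate 2 (vertical axis) for the 1737 genes with a mean log2 signal of 1 or more; 7 genes lie outside the axes. Purple points are the 70 respiratory chain subunits and grey points the 1667 other genes, and the dashed square marks 0.25 log2 units. The subunits gather inside the square (87.1%, against 60.2% of the other genes), with Atp5md, Ndufs8 and Cox6c among those outside it. Subunits and other genes were not matched in signal, and both axes share the standard array.

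Genes around the chain were described in the same way, with no list tested. Their counts stand beside 27.1% lower on both high-calcium arrays and 35.4% higher on both among all genes above background. The mitochondrial genome's own subunits were represented by 1 gene, ND5 of complex I, with log2 signals of 4.86 and 4.66 on the high-calcium arrays, against 4.99 on the standard array. Among 12 tricarboxylic acid cycle genes, the high-calcium arrays were both lower for 8 and both higher for 2, with medians of -0.18 and -0.13. Among them Dld, the dihydrolipoamide dehydrogenase, had 1.07 and 1.38, against 1.66 on the standard array, Idh3b, a subunit of the NAD-linked isocitrate dehydrogenase, had 2.20 and 2.33, against 2.58, and Suclg1, a subunit of succinyl-CoA ligase, had 1.82 and 1.86, against 2.10. On the array of open diet the median of this list was 0.015. Of 9 electron carriers and side entries 5 were lower on both and 1 was higher on both, with Cycs, cytochrome c, at 4.15 and 4.09, against 4.30 on the standard array. Dhodh, an enzyme of pyrimidine synthesis that reduces quinone, had -1.96 and -2.29, against -2.41, and Sqor, which oxidises sulphide, had 0.75 and 1.05, against 1.14. Of 38 assembly factors 10 were lower on both and 12 higher on both, and their median was 0.023. They include Acad9, a complex I assembly factor, with differences of -0.63 and -0.43, Cox10, of haem synthesis for complex IV, at -1.30 and -1.50, against -1.88 on the standard array, and Atpaf2, an assembly factor of the ATP synthase head, at -0.40 and 0.088, against -0.52.

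Regulators of mitochondrial formation were mixed. Both high-calcium arrays were lower for 6 of 14 measured (42.9%) and higher for 4 (28.6%), beside 27.1% and 35.4% of all genes above background. The median was -0.016. Ppargc1a, a coactivator of respiratory genes, was picked after its values were seen and had log2 signals of -2.94 and -3.45, against -2.90 on the standard array. Esrrg, a nuclear receptor that it works with, had -3.27 and -3.67, against -2.46 on the standard array. Nrf1, a transcription factor known to bind promoters of respiratory subunits, had -3.01 and -3.09, against -3.41 on the standard array, and -3.77 on the array of open diet. Ppargc1a, Esrrg and Nrf1 were dim: log2 background was -3.38 and -3.99 on the high-calcium arrays and -4.00 on the standard array. They have 5, 3 and 4 probe sets, of which 1 each is given. Pprc1, a relative of Ppargc1a, had -2.06 and -1.63, against -2.18 on the standard array. Tfam, which packages mitochondrial DNA and is needed to transcribe it, was picked after its values were seen and had -0.42 and -0.52, against -0.59. Of 14 other mitochondrial genes, mainly of outer and inner membrane carriers, channels and protein import, 3 were lower on both and 7 higher on both. Their median was 0.031. The largest differences there were those of Timm44 and Phb2, at 0.34 and 0.33 on average, and of the chaperonin Hspd1, at 0.22. None of the genes of these lists passed limma's test at an adjusted p under 0.05.

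Promoters of the subunits were searched for the 10 letters of the palindromic Nrf1 site, shown in capitals in the stretches that follow. Promoter windows from RefSeq (GRCm38.p6), 250 bases before to 50 after the start of a gene, were at hand for 66 of the 82 members. The letters stood in 5.63% of 71 windows of members and in 1.32% of 21192 windows of other protein-coding genes. The core of the site for ETS factors such as Gabpa, CCGGAAGT on either strand, stood in 7.04% of windows of members and 5.14% of the others, and 0 members held both. The members with the Nrf1 letters were Atp5g2, Atp5k, Cox6a1 and Uqcrc1. The stretch of 40 bases around the match is shown for the 3 of them with 1 window and the match before the start, all on the minus strand, with the motif in capitals.
Atp5g2, chr15:102671065-102671104: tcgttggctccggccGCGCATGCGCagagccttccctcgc
Atp5k, chr5:108434425-108434464: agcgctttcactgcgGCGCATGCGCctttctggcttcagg
Cox6a1, chr5:115349096-115349135: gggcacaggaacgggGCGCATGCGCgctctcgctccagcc
On the arrays Atp5g2, Atp5k and Cox6a1 had mean differences of 0.11, 0.065 and 0.17, and Uqcrc1 had -0.11. A match is a description of these letters and says nothing of binding.

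The scale of the arrays bears on every sign near 0. High-calcium replicate 1 had the highest background, and its bright and dim genes are not offset alike: relative to the standard array, the median of all genes was 0.19 on it, that of genes above background 0.064 and that of the members 0.021. Quantile normalization left the complex medians on replicate 1 between -0.13 and 0.084. Centring each array on its own median moved them to between -0.80 and -0.53 on replicate 1, and to between -0.11 and -0.014 on replicate 2, and moved the median of genes above background to -0.56 and -0.0040. The median of all members was then -0.60 and -0.085. Under that centring the mean differences of Atp5e, Cox6a1, Cox7a2l, Ndufa1, Ndufa7, Ndufb10 and Atp5k also turned negative. Which scaling is right was not tested. Atp5md was lower under each of these scalings, at -0.60 as deposited, -0.58 after quantile normalization, -0.63 when centred on genes above background and -0.91 when centred on the array median.

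**Figure D5:**
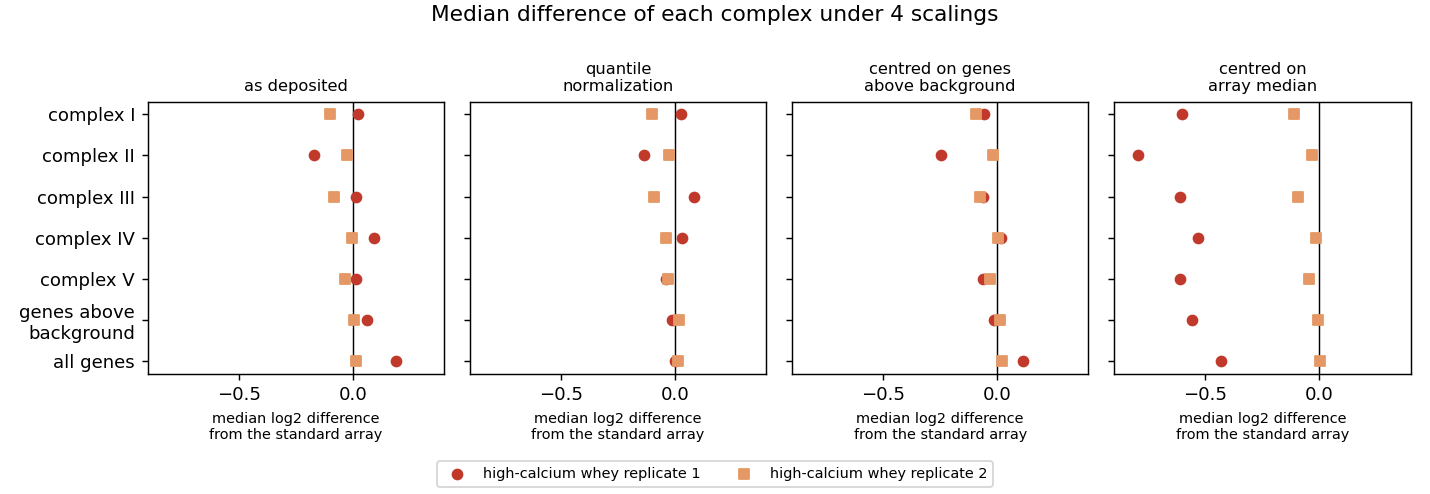
Median log2 difference from the standard array (horizontal axis) of each complex, of genes above background and of all genes, under 4 scalings of the arrays, with circles for high-calcium whey replicate 1 and squares for replicate 2. Under 3 scalings the complex medians lie between -0.25 and 0.094; centring on the array median moves every circle, those of all genes and of genes above background included, to the left by about the same amount.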

How the data were processed

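RNA from epididymal fat pads was hybridised to Affymetrix Mouse Genome 430 2.0 arrays, 4 in all, with 1 mouse per array as far as the labels tell. The deposited values are linear intensity values per probe set. The submitters' processing notes name RMA with no version, but the values are not on the log2 scale that RMA gives, and the authors' scaling of each array is not stated in any source at hand. The lowest value of each array was its median divided by 100. Of 45101 probe sets 34958 carried 1 gene symbol in the platform annotation, 932 several and 9211 none listed.

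Log2 was taken with no constant and no further normalization. A gene with several probe sets was taken at the one whose log2 signal averaged highest across arrays. The high-calcium arrays (n = 2) were compared with the standard array (n = 1) in limma 3.58.1 under R 4.3.3, with Benjamini-Hochberg adjustment over 18194 genes and a threshold of 0.05. The standard diet's own spread was not measured, the p-values rest on the spread between the 2 high-calcium arrays, moderated over all genes, and the number of arrays limits the precision. Plots used matplotlib 3.10.9 (Python 3.11.15). The procedure was tested on simulated data in which every gene had the same spread. On these arrays bright probe sets vary less than dim ones, so that test does not show how the procedure performs here.

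Members named with values were, per complex, up to 3 with the highest mean signal, up to 3 in each direction with the largest difference on the same side on both high-calcium arrays, and up to 3 with the widest gap between those arrays. Core subunits of complexes I and III, the Sdh subunits, tissue forms, c-ring genes, members not above background and members with disagreeing probe sets were named too, while Atp5b, Atp5pb, Atp5l, Atp5j2, Atp5mpl, Cox6c, Ppargc1a, Tfam and Tnnc2 were added after their values were seen. From the other gene lists up to 3 genes above background were named by size of mean difference. The members and lists were chosen with earlier results of these data known. Alternatives were quantile normalization, centring on each array's median or on genes above background, other choices of probe set, a filter on dim genes, other limma settings and leaving out each high-calcium array.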

Additional observations from a re-analysis of the deposited data

How the results depend on the processing

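Under the scalings, probe set choices, filter and limma settings run, 0 members passed limma's adjusted test. Genes called over the whole array numbered 0 as deposited, 6 with trend and robust estimation, 96 with each array centred on its median and 898 at an unadjusted p under 0.05, where 1 member, Ndufb4, was included. Centring on the array median gave 63 members lower on both high-calcium arrays and 3 higher on both, against 32 and 15 as deposited (all genes 38.8% and 20.4%, against 23.9% and 38.6%), and medians of -0.34 for all members, -0.37 for complex I, -0.42 for complex II, -0.37 for complex III, -0.28 for complex IV and -0.33 for complex V, while the median of all genes moved to -0.24, against 0.079 as deposited. It turned the sign of Atp5e (-0.10), Atp5g2 (-0.21), Atp5g3 (-0.30), Atp5k (-0.25), Cox6a1 (-0.15), Cox7a2l (-0.16), Ndufa1 (-0.20), Ndufa7 (-0.13) and Ndufb10 (-0.23). Atp5g3 was also turned by quantile normalization (-0.026) and by centring on genes above background (-0.018). With the mean of all probe sets, dim ones included, 28 members were lower on both and 26 higher (all genes 20% and 42.1%), and Ndufb2 (0.74) and Ndufs8 (0.11) changed sign. With shared-transcript probe sets left out, 22 of 66 members were lower and 20 higher, the median of complex III was 0.028, and Cox5a (0.0038) and Ndufv1 (0.012) changed sign. Cox7c (0.054) and Ndufb2 (2.22) did too, but from probe sets not above background on all arrays, that of Ndufb2 also being part of its mean of 0.74, so no direction is read from them. The cause was not tested.

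Leaving out a high-calcium array left 1 array per diet and no test, so calls have no value there. Members lower than the standard array then numbered 36 (without replicate 2) to 63 (without replicate 1), and members higher 19 (without replicate 1) to 46 (without replicate 2). The medians ran from -0.075 to 0.021 for all members, -0.10 to 0.021 for complex I, -0.17 to -0.024 for complex II, -0.083 to 0.015 for complex III, -0.0047 to 0.094 for complex IV and -0.036 to 0.015 for complex V. No paired analysis was possible because the standard diet had 1 labelled array. Probe sets near background, such as those of Ndufb4, Cox7b2 and Cox4i2, limit what can be said of those genes.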
